A study of Mus musculus with 12 samples.

Results

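The centrosomal and acentriolar spindle pole genes followed here are 8 mouse genes: Pcnt, Cep192 and Cdk5rap2 (pole scaffolds), Nedd1 (an adaptor for γ-tubulin), Plk4 (a kinase), and Tacc3, Ckap5 and Numa1 (spindle and pole assembly). They were chosen by name, and all 8 were found among the 23230 genes of the expression table and among the 11502 genes that reached at least 1 FPKM in at least 1 library. Their levels were compared between WT oocytes and oocytes lacking both Zar1 and Zar2 (Zar1/2-null), at 3 stages, in 12 libraries. The question was how the RNA of the pole machinery behaves through oocyte growth and meiotic maturation when these RNA-binding proteins are missing.

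A centrosome normally consists of a pair of centrioles in a cloud of pericentriolar material that nucleates microtubules. Mouse oocytes lose their centrioles, and the poles of the meiotic spindle are built instead from many acentriolar microtubule-organising centres (aMTOCs), patches of pericentriolar material that fragment and gather at the poles. The oocyte stores the messengers for this machinery while it grows, is transcriptionally quiet when fully grown, and degrades a large part of its messengers while it matures. Some stored messengers instead gain a longer poly(A) tail at maturation, through cytoplasmic polyadenylation elements near the polyadenylation signal, which turns on their translation.

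Oocytes came from a C57BL6/ICR hybrid strain, WT or Zar1/2-null, with no treatment other than the hormones. Growing oocytes were from females of 13.5 days per the labels (the methods state another age), oocytes at the germinal vesicle (GV) stage from females of 21 days, 44 h after PMSG, and metaphase II (MII) oocytes were ovulated and taken 16 h after hCG. MII is the label of these libraries: the study describes ovulated Zar1/2-null oocytes that were still in meiosis I, so genotype and meiotic stage cannot be told apart in the comparisons at MII and from GV to MII. Zar1 was disrupted with a small deletion that brings in a stop codon and Zar2 with a deletion inside exon 1 that shifts the reading frame, both by CRISPR/Cas9 and in every cell of the animal, so that the follicle cells lacked the genes as well. Each of the 6 groups had 2 libraries of 10 oocytes, sequenced by Smart-seq2, which copies polyadenylated RNA from a few cells with an oligo-dT primer. No source says that the 2 libraries of a group came from different animals, so p-values measure the spread between these libraries, which may be technical. Levels are FPKM, fragments counted relative to exon length and to the mapped fragments of the library, which the authors multiplied by a factor from ERCC spike-in RNA. They therefore stand for RNA per 10 oocytes, on a scale set by the WT growing library of the same replicate number. Both WT growing libraries have a factor of 1, so a difference in spike-in share between them is not in the values. Dividing the factor out again gives the level as a share of the library. Fewer intact oocytes in a library and less RNA per oocyte cannot be told apart, nor can less RNA and a shorter poly(A) tail.

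The 3′ ends of these messengers differ in whether they hold a cytoplasmic polyadenylation element, and are shown for that reason. In the mm9 annotation, the longest coding transcript of 3 of the 8 genes held TTTTAT in its last 100 bases: Pcnt (1 copy), Ckap5 (1 copy) and Plk4 (3 copies). None of the 8 held the variant TTTTAAT there. Of all 18215 coding transcripts, 13.7% held TTTTAT, 4.88% held TTTTAAT and 17.6% held either in the same window, on the transcript strand. The polyadenylation signal AATAAA stood in 7 of the 8 ends (64.7% of all transcripts), and Cdk5rap2 had the variant ATTAAA (20.7% of all). A match of letters is a description and not evidence of a working site, and the table does not tell which 3′ end the oocytes used. Windows of 30 bases of the transcript strand follow, 5′ to 3′, with the signal and any TTTTAT just before it in capitals. In all 3 ends with the element it lay close upstream of the signal, with a single base between them in Ckap5:
Pcnt (chr10:75814021-75814050, minus strand): ttctTTTTATtggcaaaacaAATAAAacta
Plk4 (chr3:40620762-40620791, plus strand): caaatacaTTTTATaaAATAAAcacagtgg
Ckap5 (chr2:91460786-91460815, plus strand): taagagacTTTTATaAATAAAgtttgcatt
Nedd1 (chr10:92147497-92147526, minus strand): agcactgagtacAATAAAttttcacattca
Tacc3 (chr5:34021595-34021624, plus strand): gggtagccctgtAATAAAgacagctctgtc
Numa1 (chr7:109163437-109163466, plus strand): ttattacttgtaAATAAAgtctatttttct
Cdk5rap2 (chr4:69877898-69877927, minus strand): ttgaaatgtataATTAAAgtgtgcattgca

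Among the targeted genes, Zar1l (the symbol of Zar2) was listed at 639 and 644 FPKM in WT and at 17.5 and 13.2 FPKM in Zar1/2-null growing oocytes, and was lower in the null libraries of all 3 stages. Zar1 RNA was still listed in the null libraries, at 136 to 460 FPKM, since its allele was made to stop translation and its RNA level does not check the label. All 12 oocyte markers on a fixed list reached 1 FPKM in 5 of the 6 groups and 11 of 12 in WT MII oocytes. The summed level of 15 granulosa and cumulus markers was 29.3 to 33.4 FPKM in WT and 14.6 to 22.9 FPKM in null growing oocytes, 17.5 to 20.0 and 14.2 to 16.2 FPKM at GV, and 5.13 to 5.53 and 7.31 to 8.47 FPKM at MII. Of these 15, 5 reached 1 FPKM in WT and 3 in null growing oocytes, 4 and 3 at GV, and 2 and 2 at MII. The granulosa products Amh and Ptx3 were at 0 in 5 and 6 of the groups. Of the 5 markers among the genes tested, 3 were called lower and 1 higher in null growing oocytes (24.4% and 10.6% of all genes). The summed level of 9 immune and blood markers did not exceed 3.52 FPKM in any library, and both globins were at 0 throughout. The part of these cells in the results was not tested. The ERCC factor was 0.862 and 0.779 in null growing, 0.836 and 0.697 in WT GV, 0.533 and 0.583 in null GV, 0.225 and 0.228 in WT MII and 0.283 and 0.252 in null MII oocytes, relative to the WT growing library of the same number. It sets how far all genes of a library move together, and the calls among the 8 genes are given with and without it. Levels and overlaps of libraries are ERCC-scaled unless stated.

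The deposited values also held the depth behind most members. The value of a single read, found from the commonest ratio of low values between libraries, gave depths of 0.914 to 1.24 relative to the first WT growing library. With it, the values of 6 members were whole multiples of a common step in all 12 libraries, within 0.05 reads, and those of Plk4 in 11 libraries. Taken as the smallest whole numbers of reads, they ran from 170 (Cdk5rap2, first null MII library, 95% Poisson interval 145 to 198) to 23629 (Tacc3, second null growing library), so that counting error was at most 7.67% of a value. Ckap5 gave no common step, and its depth is unknown. Smart-seq2 reads carry no molecular identifiers, so these errors cover counting only.

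FPKM is per length, so levels can be set beside each other. In WT growing oocytes Tacc3 stood far above the rest with a mean of 634 FPKM, followed by Nedd1 (73.8 FPKM), Plk4 (59.2 FPKM), Ckap5 (23.2 FPKM) and Pcnt (15.0 FPKM). Numa1 (6.26 FPKM), Cdk5rap2 (6.06 FPKM) and Cep192 (5.98 FPKM) came last, and neighbours among these 3 overlapped between libraries. The highest mean was 106 times the lowest. In WT MII oocytes the span had narrowed to 24.6 times and the order had changed, with Plk4 first (25.0 FPKM), then Nedd1 (19.6 FPKM), Tacc3 (14.9 FPKM) and Ckap5 (10.6 FPKM), and Cdk5rap2 last (1.02 FPKM). There, Pcnt and Cep192 were the only neighbours whose libraries overlapped. The order of the first 5 was the same in the null oocytes of each stage.

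Pcnt (chr10:75813999-75905657, minus strand) encodes pericentrin, the large scaffold that anchors other pole proteins in the aMTOC. Its level was 14.6 and 15.4 FPKM in WT and 9.12 and 10.1 FPKM in null growing oocytes. At GV it was 16.9 and 16.5 FPKM in WT and 8.66 and 7.96 FPKM in null oocytes. At MII it was 2.77 and 3.02 FPKM in WT and 3.32 and 3.16 FPKM in null oocytes. The genotypes did not overlap: the null was below WT at the first 2 stages and slightly above it at MII, and replicates differed by at most 1.10 times. Once the ERCC factor was divided out, the genotypes overlapped at MII (12.3 and 13.3 FPKM in WT, 11.7 and 12.5 FPKM in the null).

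Cep192 (chr18:67959761-68044822, plus strand) encodes the scaffold that recruits Aurora A and PLK1 to the pole. It was listed at 5.74 and 6.23 FPKM in WT and 5.48 and 5.34 FPKM in null growing oocytes. The GV libraries held 5.30 and 4.22 FPKM in WT and 3.80 and 2.93 FPKM in the null. The MII libraries held 2.31 and 2.77 FPKM in WT and 2.29 and 2.94 FPKM in the null. The genotypes were apart at growing and GV stages by little more than the replicates and overlapped at MII.

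Cdk5rap2 (chr4:69877890-70071477, minus strand) encodes a scaffold that binds and activates γ-tubulin ring complexes. It measured 5.46 and 6.66 FPKM in WT and 3.13 and 4.11 FPKM in null growing oocytes. In GV oocytes the values were 4.46 and 4.98 FPKM (WT) and 3.71 and 2.86 FPKM (null). In MII oocytes they were 0.758 and 1.28 FPKM (WT) and 0.801 and 0.740 FPKM (null). The WT MII libraries differed by 1.68 times, from 187 and 398 reads, and enclosed a null library.

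Nedd1 (chr10:92147491-92185165, minus strand) encodes the adaptor that brings γ-tubulin ring complexes to poles and to spindle microtubules. Growing oocytes had 75.5 and 72.1 FPKM in WT and 57.8 and 50.6 FPKM in the null. GV oocytes had 50.1 and 37.0 FPKM in WT and 27.8 and 30.1 FPKM in the null. MII oocytes had 18.7 and 20.4 FPKM in WT and 19.3 and 20.1 FPKM in the null. The null libraries were lower up to GV, while at MII all 4 libraries lay within a narrow range.

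Plk4 (chr3:40603941-40620805, plus strand) encodes the kinase that starts centriole duplication in dividing cells, and which in oocytes without centrioles acts in microtubule nucleation. WT growing libraries had 60.2 and 58.1 FPKM and null ones 44.7 and 36.8 FPKM. WT GV libraries had 45.5 and 38.6 FPKM and null ones 25.7 and 31.4 FPKM. WT MII libraries had 26.0 and 24.1 FPKM and null ones 28.7 and 27.7 FPKM. The genotypes did not overlap at any stage, with the null below WT at the first 2 stages and above it at MII. With the ERCC factor divided out, they overlapped at MII (116 and 106 FPKM in WT, 102 and 110 FPKM in the null).

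Tacc3 (chr5:34000777-34021644, plus strand) encodes an Aurora A substrate that crosslinks spindle microtubules together with CKAP5 and clathrin. Its WT growing libraries held 586 and 682 FPKM and the null ones 573 and 547 FPKM. Its WT GV libraries held 394 and 312 FPKM and the null ones 254 and 327 FPKM. Its WT MII libraries held 11.4 and 18.4 FPKM and the null ones 17.3 and 11.9 FPKM. The genotypes overlapped at GV and MII, and at MII the replicates of WT differed by 1.61 times, from 1265 and 2567 reads, beyond counting error.

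Ckap5 (chr2:91366919-91460821, plus strand) encodes a microtubule polymerase that adds tubulin at growing plus ends. Growing oocytes had 24.3 and 22.1 FPKM in WT and 18.5 and 18.2 FPKM in the null. At GV the levels were 21.1 and 18.2 FPKM in WT and 14.1 and 11.1 FPKM in the null. At MII they were 10.0 and 11.2 FPKM in WT and 9.89 and 10.5 FPKM in the null. Null libraries were lower up to GV and overlapped with WT at MII.

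Numa1 (chr7:109082688-109163473, plus strand) encodes a partner of dynein that focuses microtubule minus ends at the pole. It stood at 6.06 and 6.46 FPKM in WT and 6.14 and 6.76 FPKM in null growing oocytes. It stood at 5.52 and 5.61 FPKM in WT and 3.24 and 2.97 FPKM in null GV oocytes. It stood at 2.17 and 2.28 FPKM in WT and 2.13 and 2.26 FPKM in null MII oocytes. The genotypes overlapped in growing and MII oocytes and were clearly apart at GV, the only such stage.

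**Figure D1:**
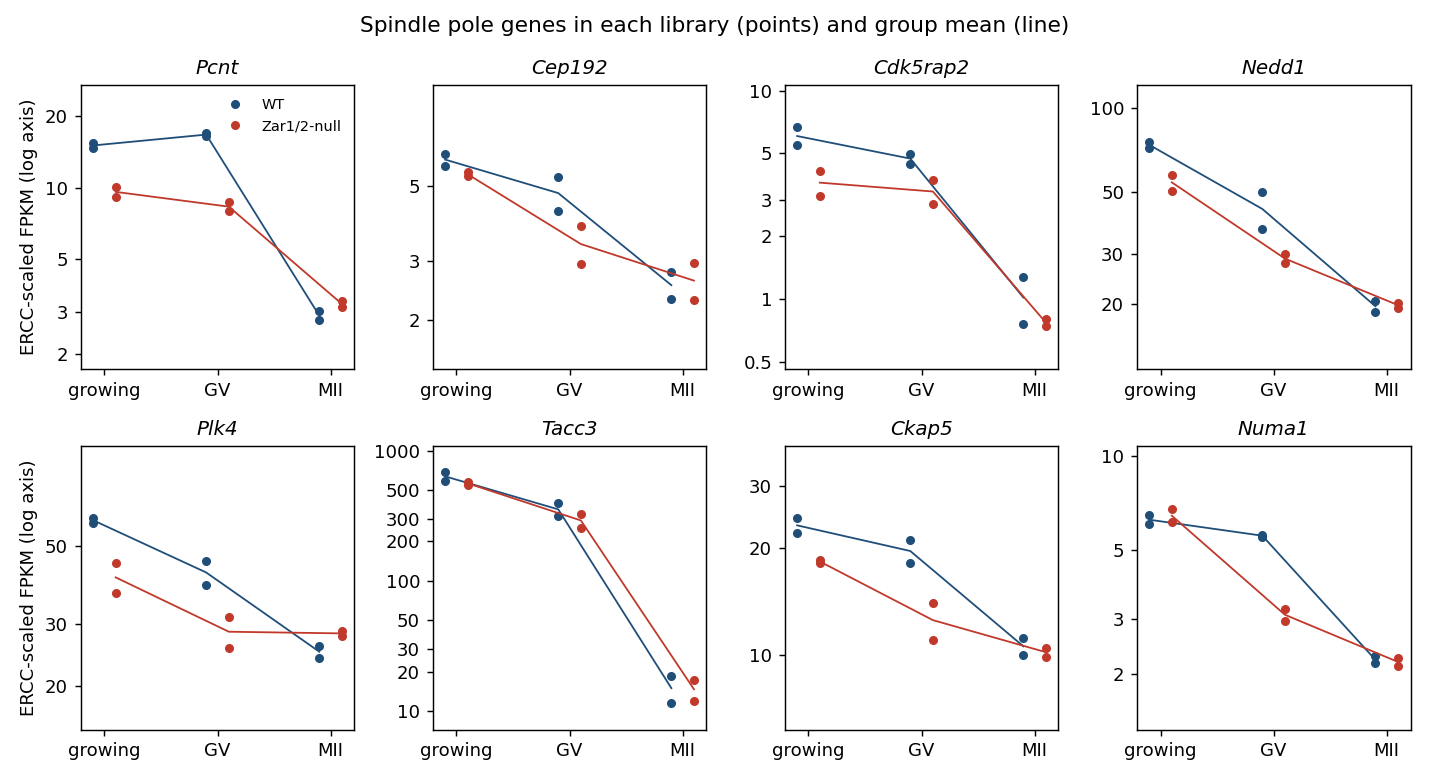
ERCC-scaled FPKM on a log axis of the 8 spindle pole genes in growing, GV and MII oocytes; points are libraries (2 a group), lines join group means, blue is WT and red Zar1/2-null. The null libraries of Pcnt, Cep192, Cdk5rap2, Nedd1, Plk4 and Ckap5 lie below WT at growing and GV stages. At MII those of Cep192, Cdk5rap2, Nedd1 and Ckap5 overlap with WT and those of Pcnt and Plk4 lie slightly above it.

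In growing oocytes, 3 of the 8 genes were lower in the Zar1/2-null: the scaffolds Pcnt and Cdk5rap2 and the kinase Plk4. The mean of Pcnt was 0.638 of WT (log2 difference −0.60 ± 0.13, SE, limma adjusted p = 0.00389), that of Cdk5rap2 0.598 (−0.61 ± 0.17, adjusted p = 0.0187) and that of Plk4 0.688 (−0.53 ± 0.16, adjusted p = 0.0228). Log2 differences are on the log2(FPKM + 1) scale, which understates the change of low genes such as Cdk5rap2. Of all 11502 genes, 24.4% were called lower in this comparison, so 3 of 8 is not far from the background. Nedd1 (−0.44, adjusted p = 0.0561) and Ckap5 (−0.32, adjusted p = 0.124) did not pass, nor did Tacc3 (−0.17), Cep192 (−0.12) and Numa1 (0.04). The genotypes did not overlap, with the null lower, for 7 of 8 members and 47.4% of all genes. The members' median was −0.38 and that of all genes −0.16. Without the ERCC factor no member was called, and Tacc3, Cep192 and Numa1 lay above WT at 0.11, 0.12 and 0.29. Pcnt was called whichever library was left out, and it alone without the second WT growing library. Cdk5rap2 was also lost without the first null growing library and when only the 4 growing libraries were fitted, where Nedd1 was called instead, and Plk4 without the first WT or the second null growing library.

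In GV oocytes, 5 of the 8 genes were lower in the null: Pcnt, Numa1, Ckap5, Nedd1 and Plk4. Pcnt differed most, with a mean of 8.31 ± 0.495 FPKM (SD, n = 2) in the null against 16.7 ± 0.254 FPKM (SD, n = 2) in WT, a ratio of 0.498 (log2 difference −0.93 ± 0.13, SE, limma adjusted p = 0.00027). Numa1 was at 0.558 of WT (−0.68 ± 0.12, adjusted p = 0.00126) and Ckap5 at 0.639 (−0.61 ± 0.15, adjusted p = 0.00799). Nedd1 was at 0.665 (−0.56 ± 0.16, adjusted p = 0.0177) and Plk4 at 0.679 (−0.55 ± 0.16, adjusted p = 0.0173). Cep192 (−0.40, adjusted p = 0.0604), Cdk5rap2 (−0.42, adjusted p = 0.0695) and Tacc3 (−0.28, adjusted p = 0.358) did not pass. The background was high, with 40.6% of all genes called lower, and the null libraries lay below WT for 7 of 8 members and 63.6% of all genes. The median was −0.55 over the members and −0.38 over all genes. As a share of the library, Pcnt alone was still lower (−0.52, adjusted p = 0.0358, ratio 0.681), a call made for 13.5% of genes on that scale, while Tacc3 lay above WT (0.17, adjusted p = 0.613). Fitting only the 4 GV libraries left 2 of the 5 calls, Pcnt and Numa1, and so did leaving out the first WT GV library. Nedd1 and Plk4 were also lost without the first null GV library.

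In MII oocytes none of the 8 genes passed limma between genotypes, and none had an unadjusted p under 0.05. The log2 differences ran from −0.18 (Cdk5rap2, 95% interval −0.56 to 0.21) to 0.17 (Plk4, −0.18 to 0.52). The interval of Pcnt was −0.15 to 0.40 and that of Numa1 −0.28 to 0.25, so that a difference of the size seen at GV lay outside both. Among all genes, 21.5% were called higher and 10.3% lower in the null. All 8 differences were below 0 without the ERCC factor, from −0.47 (Cdk5rap2) to −0.07 (Plk4 and Pcnt), again with no call. No member passed a 3-fold difference of means between genotypes at any stage, a rule that the study used and that 520, 536 and 1014 genes passed in growing, GV and MII oocytes.

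**Figure D2:**
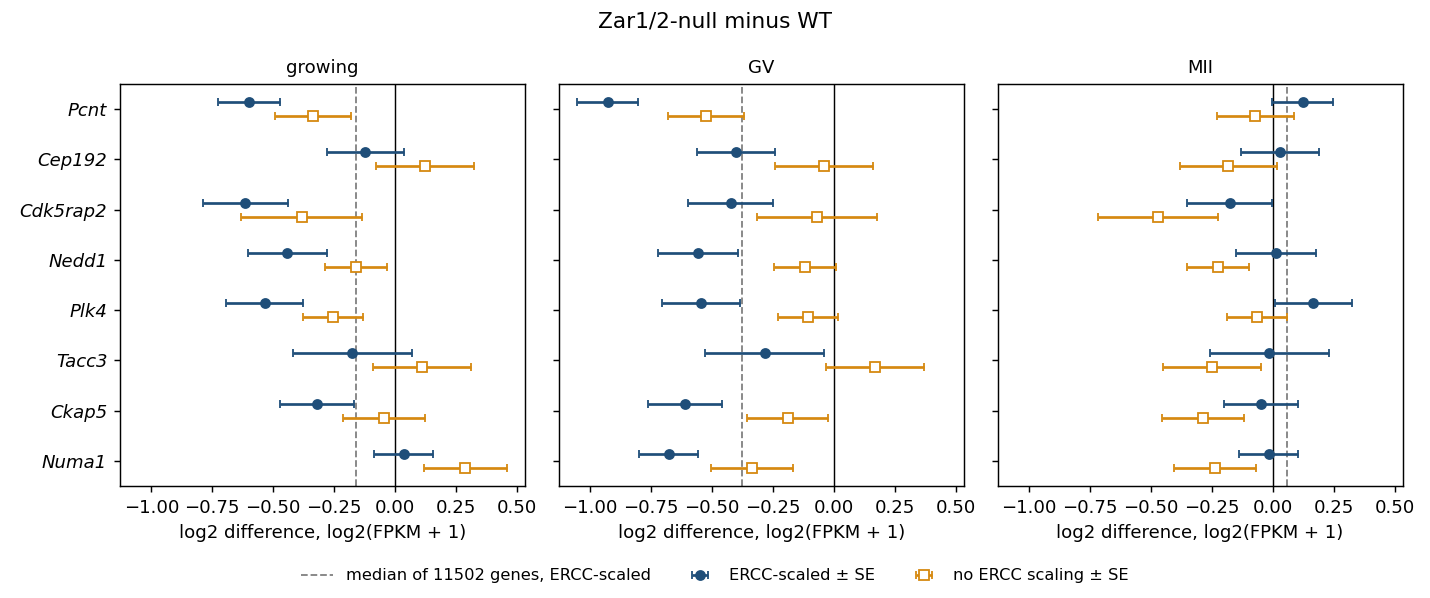
Log2 difference, Zar1/2-null minus WT, of each gene in growing, GV and MII oocytes with its SE; blue circles are ERCC-scaled and orange squares unscaled values, and the dashed line is the ERCC-scaled median of all 11502 genes. Pcnt at GV (−0.93) lies farthest from 0 and is also called without the ERCC factor (−0.52), whereas Tacc3 and Cep192 in growing and Tacc3 in GV oocytes turn positive without it.

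From the growing to the GV stage, 3 members fell in WT oocytes: Nedd1 to 0.590 of its growing level (−0.76 ± 0.16, SE, limma adjusted p = 0.0076), Tacc3 to 0.557 (−0.85 ± 0.24, adjusted p = 0.0242) and Plk4 to 0.711 (−0.49 ± 0.16, adjusted p = 0.0383). The background was 28.7% of genes called lower, with a median of −0.29 over all genes and over the members. Pcnt was the only member with a higher mean at GV (0.14, adjusted p = 0.398). In null oocytes 6 members fell, the exceptions being Pcnt (−0.18, adjusted p = 0.222) and Cdk5rap2 (−0.11, adjusted p = 0.611), against 55.9% of all genes. Numa1 fell to 0.481 of its growing level in the null (−0.86 ± 0.12, adjusted p = 0.000162), whereas in WT its difference was −0.15 (adjusted p = 0.371). The difference between these 2 changes was −0.71 ± 0.17 (SE, interaction, limma adjusted p = 0.0222), the only member of 8 called, against 11.3% of genes called in that direction. The interaction was not called without the first WT growing, the second null growing or the first WT GV library. Without the second WT GV library the count of falls in WT dropped to 0, and it dropped to 1 without either WT growing library. Without the ERCC factor no member was called in either genotype, and several differences turned positive (Cep192, Cdk5rap2, Ckap5 and Numa1 at 0.04, 0.03, 0.14 and 0.19 in WT, and Plk4, Pcnt and Cdk5rap2 at 0.04, 0.32 and 0.35 in the null). The interaction of Numa1 was −0.62 (adjusted p = 0.155).

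During maturation from GV to MII, the RNA of all 8 genes fell in WT oocytes, as did that of 93.4% of all genes. The members differed widely in how far they fell. Tacc3 dropped from 353 ± 57.8 to 14.9 ± 4.90 FPKM (SD, n = 2), by 23.7 times (−4.50 ± 0.24, SE), the only member that passed the 10-fold fall of means that the study used, together with 15.7% of all genes. Pcnt fell by 5.77 times and Cdk5rap2 by 4.64 times, near the typical gene, since the median ratio of MII to GV over genes averaging 5 FPKM or more was 0.194 and those of Pcnt and Cdk5rap2 were 0.173 and 0.216. Numa1 (2.50 times), Nedd1 (2.23 times), Cep192 (1.88 times), Ckap5 (1.85 times) and Plk4 (1.68 times) fell less, and between 72.3% and 92.9% of those genes fell further. Their limma adjusted p for the fall lay at or below 0.00134.

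Seen as a share of the library, the same values split the members. Without the ERCC factor, 4 of 8 rose from GV to MII in WT oocytes: Plk4 (1.00 ± 0.12, SE, 2.02 times), Ckap5 (0.84 ± 0.17, 1.83 times), Cep192 (0.76 ± 0.20, 1.81 times) and Nedd1 (0.61 ± 0.13, 1.53 times), while Tacc3 (−2.82) and Pcnt (−0.73) fell. The background on this scale was 19.7% called higher and 47.6% lower. So the direction for these 4 genes depends on the scale: a lower ERCC-scaled level, but a larger share of the library. Of the 3 genes with TTTTAT before the signal, Plk4 and Ckap5 were among the 4 that rose and Pcnt among the 2 that fell.

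Null oocytes gave 5 falls of 8 at maturation, against 68.7% of all genes. Tacc3 fell by 19.9 times (−4.23 ± 0.24, SE), and it alone passed 10-fold, as did 6.66% of genes. Cdk5rap2 fell by 4.26 times and Pcnt by 2.57 times, and Nedd1 (1.47 times) and Numa1 (1.42 times) by less. Plk4 stood at 28.5 ± 4.01 FPKM at GV and 28.2 ± 0.718 FPKM at MII (SD, n = 2), with a log2 difference of −0.01 and a 95% interval of −0.36 to 0.34. Cep192 (−0.27, adjusted p = 0.152) and Ckap5 (−0.27, adjusted p = 0.137) did not pass either. Without the ERCC factor 5 members rose in the null (Plk4, Ckap5, Cep192, Nedd1 and Numa1) and Tacc3 and Cdk5rap2 fell, with 19.5% of genes called higher and 40.5% lower. The number of falls was 3 without the first null MII library.

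On the ERCC scale, the difference in maturation change between genotypes was positive for every member, that is a smaller fall in the null. It was called for 3: Pcnt (1.05 ± 0.18, SE, limma adjusted p = 0.00111), Plk4 (0.71 ± 0.22, adjusted p = 0.0307) and Numa1 (0.66 ± 0.17, adjusted p = 0.0124). The others ran from 0.25 (Cdk5rap2, adjusted p = 0.449) to 0.57 (Nedd1, adjusted p = 0.0757) and did not pass. All 3 called members started lower in the null at GV and ended within 0.17 of WT at MII. This was called in the same direction for 33.9% of all genes, with a median of 0.48 over all genes and 0.57 over the members. No interaction of a member was called without the ERCC factor, where that of Pcnt was 0.45 (adjusted p = 0.18), Numa1 0.10 and Plk4 0.04. The others were below 0 on that scale: Tacc3 −0.42, Cdk5rap2 −0.40, Cep192 −0.14, Nedd1 −0.11 and Ckap5 −0.10. There the members' median was −0.10 and that of all genes 0.03. With the factor, Pcnt and Numa1 were called whichever library was left out. Plk4 was lost without the first WT GV, the first null GV or any of the 4 MII libraries, and without the second WT GV library 5 members were called.

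**Figure D3:**
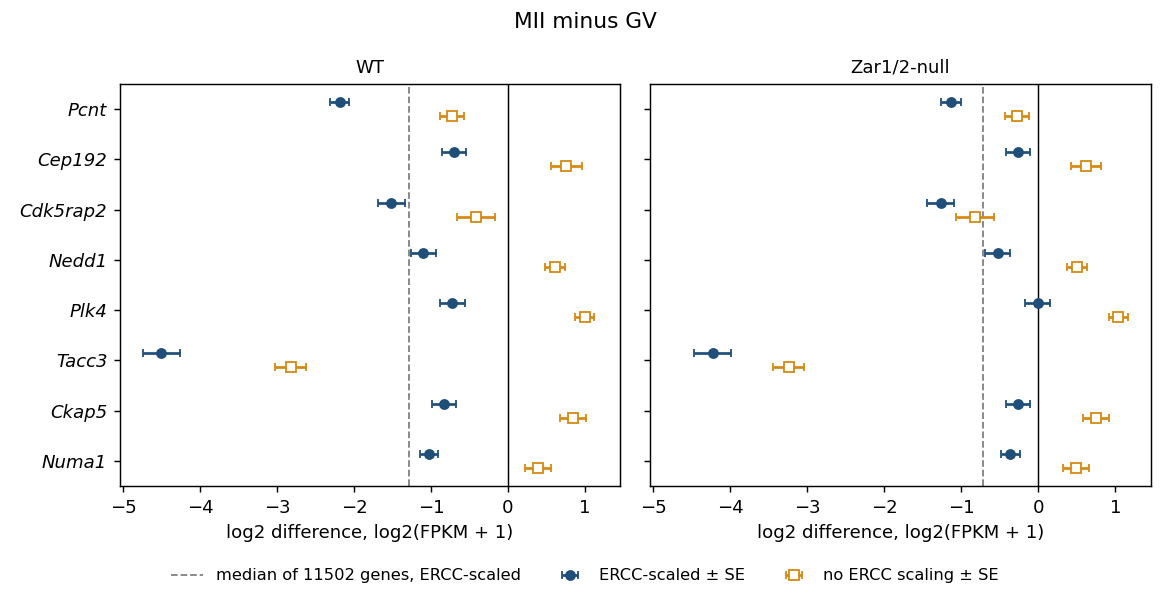
Log2 difference, MII minus GV, of each gene in WT and Zar1/2-null oocytes with its SE; blue circles are ERCC-scaled, orange squares unscaled, and the dashed line is the ERCC-scaled median of all 11502 genes. Tacc3 falls on both scales in both genotypes, whereas Plk4, Ckap5, Cep192 and Nedd1 fall in WT on the ERCC scale and rise as a share of the library.

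Other genes of pole assembly were followed as 5 lists that together held 62 kept genes besides the 8. Of these, 17 were lower and 4 higher in null growing oocytes (24.4% and 10.6% of all genes), and 31 were lower and none higher in null GV oocytes (40.6% of all genes lower). At MII 15 were higher and 7 lower in the null (21.5% and 10.3% of all genes). In WT maturation 61 of 62 fell and in the null 45 of 62 (93.4% and 68.7% of all genes). Without the ERCC factor the counts were 7 higher and 7 lower in growing (14.9% and 12.3% of all genes), 8 lower in GV (13.5%) and 16 higher and 18 lower in MII oocytes (24.6% and 23.4%). On that scale 14 rose and 26 fell in WT maturation and 17 rose and 26 fell in the null, beside 19.7% and 47.6%, and 19.5% and 40.5%, of all genes. At GV the list of aMTOC and pericentriolar material had 15 of 21 genes lower (median −0.55), of which Pcnt, Nedd1 and Plk4 are members, and 5 of 21 without the ERCC factor. The γ-tubulin ring complex had 3 of 10 lower (median −0.22), the augmin (HAUS) complex 3 of 8 (median −0.42), the list around TACC3, CKAP5, clathrin and pole focusing 13 of 21 (median −0.55), and the regulators around RAN, TPX2 and the kinases 5 of 13 (median −0.35). These counts include Nedd1 in the γ-tubulin list, Ckap5 and Numa1 in that around TACC3, and Numa1 and Plk4 in that around RAN. Without the ERCC factor the lists had, in the same order, 1 of 10, 1 of 8, 2 of 21 and 0 of 13 lower.

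At MII, where no member passed the test, some other genes of the 5 lists did. Higher and lower in the null were 2 and 2 of 21 genes in the pericentriolar list and 3 and 1 of 10 in the γ-tubulin ring complex. They were 2 and 3 of 21 in the list around TACC3 and 3 and 0 of 13 in that around RAN. The augmin list holds 0 of the 8 members. Augmin, the complex that branches new microtubules from existing ones, had 5 of 8 subunits higher and 1 lower in null MII oocytes (2 lower without the ERCC factor), with a median of 0.74 against 0.06 over all genes, of which 21.5% were higher and 10.3% lower. Its subunit Haus1 was at 0.985 and 0.974 FPKM in WT and 8.65 and 3.87 FPKM in null MII oocytes (1.79 ± 0.27, SE, limma adjusted p = 0.000324), while its mean at GV was 48.4 FPKM in WT and 12.1 FPKM in the null. In the γ-tubulin ring complex Tubg2, a γ-tubulin, was higher (11.2 and 11.6 against 30.5 and 32.8 FPKM, 1.39 ± 0.22) and Mzt1, a small subunit of the complex, was lower (22.5 and 19.9 against 9.35 and 8.51 FPKM, −1.16 ± 0.18). Ssna1, a microtubule-binding protein of the pericentriolar list, was higher (16.3 and 19.8 against 76.2 and 65.4 FPKM, 1.92 ± 0.15). Nin, encoding the minus-end anchoring protein ninein, was lower (5.90 and 7.10 against 3.64 and 4.17 FPKM, −0.61 ± 0.15). In the list around TACC3, Cltb, a clathrin light chain, was higher (2.97 and 3.99 against 17.4 and 14.2 FPKM, 1.91 ± 0.19) and Dync1i2, an intermediate chain of dynein, was lower (15.2 and 16.2 against 9.03 and 5.86 FPKM, −1.01 ± 0.20). Ran, the GTPase that drives spindle assembly around chromosomes, was higher (13.4 and 10.3 against 25.4 and 21.0 FPKM, 0.92 ± 0.18). No gene of its list was lower on the ERCC scale, and 3 were without the factor (Tpx2, Hmmr and Nusap1, named for this count). The 8 genes of this paragraph were taken by a rule of size among called genes, so the separation of their libraries follows from that choice. Each was also called without the ERCC factor.

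**Figure D4:**
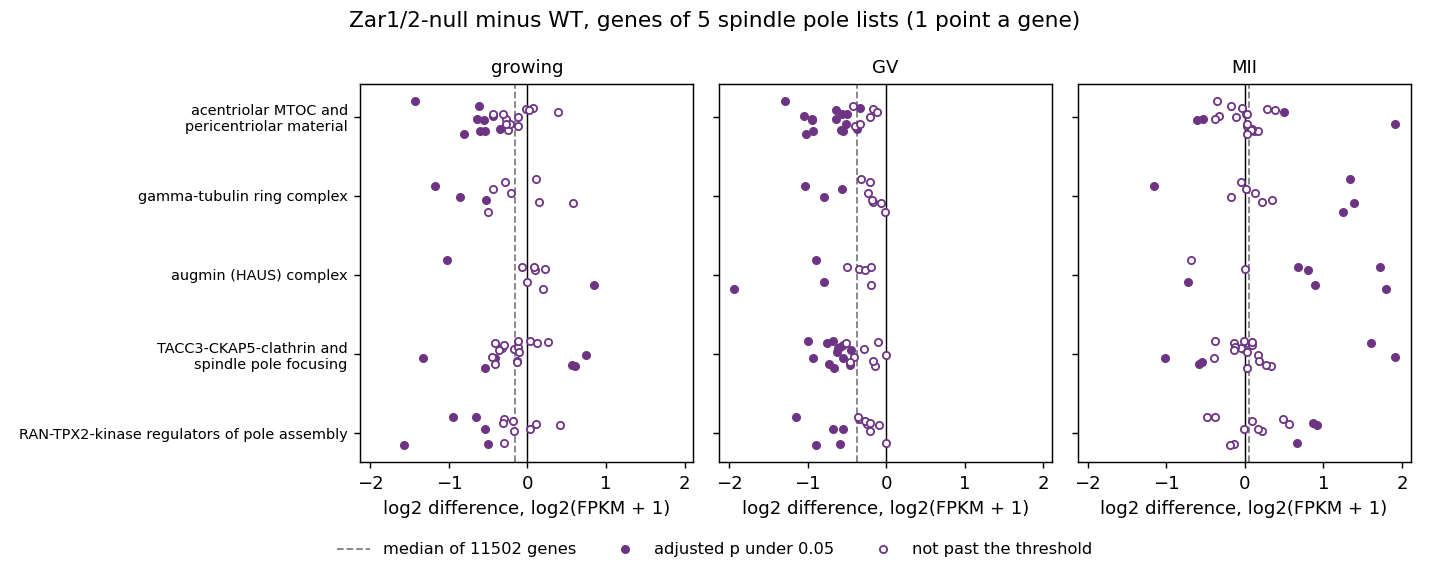
Log2 difference, Zar1/2-null minus WT, of each gene on 5 spindle pole lists (members included, a gene on 2 lists is drawn in both) in growing, GV and MII oocytes; filled points passed limma at an adjusted p under 0.05, vertical position within a list is arbitrary, and the dashed line is the median of all 11502 genes. At GV no gene lies above 0 past the threshold, and at MII called genes lie on both sides.

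The pole kinases and their activator can be set beside the members. Tpx2, the activator of Aurora A, was at 56.6 and 54.8 FPKM in WT and 40.7 and 37.3 FPKM in null growing oocytes (−0.50 ± 0.14, SE, limma adjusted p = 0.0182), and at 39.2 and 37.8 against 25.3 and 25.3 FPKM at GV (−0.59 ± 0.14, adjusted p = 0.00714). Neither call was made without the ERCC factor (−0.22, adjusted p = 0.269, and −0.15, adjusted p = 0.51). Aurka, which encodes Aurora A, had means of 162 and 129 FPKM at GV (−0.35, adjusted p = 0.193) and fell by 6.50 times in WT and 3.65 times in null maturation, with an interaction of 0.83 ± 0.30 (adjusted p = 0.0489), a call made for 33.9% of all genes and not without the ERCC factor (0.16, adjusted p = 0.673). As a share of the library Aurka still fell in both genotypes (−0.93 and −0.77). Plk1, the kinase recruited by CEP192, had means of 67.2 and 58.5 FPKM at GV (−0.21, adjusted p = 0.397) and fell by 4.51 and 3.34 times. Its fall as a share of the library was called in the null (−0.66, adjusted p = 0.00901) and not in WT (−0.41, adjusted p = 0.0665). At MII none of these 3 passed the test between genotypes (Aurka stood at 0.48, adjusted p = 0.105), but as a share of the library Tpx2 was lower in the null (−0.38, adjusted p = 0.0448).

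Across the 12 libraries, the log2 levels of 7 members were set against those of up to 5966 genes averaging 5 FPKM or more. These libraries share stage and ERCC factor, so high values are common, and they are given as a description. The closest gene was Casc5 for Nedd1 (Pearson r = 0.994), Fam160a1 for Pcnt (0.992), Nanos1 for Numa1 (0.992), Plekhg1 for Ckap5 (0.988), Fubp1 for Plk4 (0.988), Sf3b2 for Cdk5rap2 (0.987) and Ubfd1 for Cep192 (0.983). Among the members themselves, Cep192 and Ckap5 (0.969) and Pcnt and Cdk5rap2 (0.969) were the closest pairs, and Plk4 and Tacc3 (0.762) the least alike.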

How the data were processed

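Oocytes of 6 groups were measured in 12 Smart-seq2 libraries. Per the study's methods and the submitters' processing notes, the authors trimmed reads to 50 bases, mapped them to mm9 with TopHat2 2.1.1, kept uniquely mapped reads, obtained FPKM with Cufflinks 2.2.1 on UCSC gene models, and deposited FPKM multiplied by the ERCC share of the WT growing library over that of the sample. The library kit does not mark strand, so reads from a gene and an antisense partner cannot be told apart. A listed 0 can be a failed estimate (30.9% to 38.6% of a library's genes).

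The factors were recovered from the values, which return to 6 significant digits when they are divided out. The test used the 11502 genes that reached 1 FPKM somewhere. limma 3.58.1 (R 4.3.3, eBayes with trend) modelled log2(FPKM + 1) over the 12 libraries with a term for each group, p-values were adjusted by Benjamini-Hochberg over all kept genes and the threshold was 0.05. Exact permutation of 2 against 2 libraries cannot go below p = 0.333. 3′ ends came from the longest coding transcript of each gene in GENCODE on mm9 (NCBIM37). No count test was run.

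The members and lists were chosen with earlier results of these data known. Lists of oocyte, granulosa and cumulus, and immune and blood markers were also read. Symbols absent from the table were matched through RefSeq synonyms. Besides the members, genes were named by rule: Zar1 and Zar1l, Tpx2, Aurka and Plk1, the called gene of each list with the largest MII difference in each direction (5 FPKM or more in the higher group's mean), and the gene closest to each member over 12 libraries (that of Tacc3 is not reported here). Alternatives were no ERCC scaling, median scaling, a pseudocount of 0.1 FPKM, no filter, only genes averaging 5 FPKM or more, a replicate block, only the groups compared, and leaving out each library. A crossed pairing at GV was added after seeing the data.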

Additional observations from a re-analysis of the deposited data

Results flagged for a closer look

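Results here are members whose difference between genotypes was itself different between stages. The change of Pcnt from GV to MII differed by 1.05 (log2, null minus WT, limma adjusted p = 0.00111), that of Plk4 by 0.71 (adjusted p = 0.0307) and that of Numa1 by 0.66 (adjusted p = 0.0124). The change of Numa1 from growing to GV differed by −0.71 (adjusted p = 0.0222). Without the ERCC factor the same 4 values were 0.45, 0.04, 0.10 and −0.62, and none passed (adjusted p 0.18, 0.907, 0.82 and 0.155). With the factor, calls in these directions were made for 33.9% of all genes in the maturation interaction and 11.3% in the growth interaction. With 2 libraries a group, no single library could be examined as standing apart within its group.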

How the results depend on the processing

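The ERCC scaling decided most counts. Without it, the number of members called lower in the null was 0 in growing and 1 in GV oocytes, and 0 were called lower from growing to GV in either genotype. From GV to MII without it, 4 rose and 2 fell in WT and 5 rose and 2 fell in the null, and 0 interactions were called for growth and 0 for maturation. Median scaling gave 0 lower in growing and 1 in GV oocytes, 0 falls of growth in WT and in the null (where 1 rose), 5 rises and 1 fall at maturation in WT and again 5 and 1 in the null, and 0 interactions of growth and 0 of maturation. Of the 11502 genes, median scaling called 4080 higher and 4197 lower in WT maturation, and 3891 and 3516 in the null. It called 1271 genes lower in null than in WT GV oocytes, and 1979 higher in null growth.

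Member differences that changed sign and were called on either scale are given here as log2 values, and sign changes of differences called on neither are left out. From growing to GV in the null, median scaling gave 0.44 for Pcnt (adjusted p = 0.0357), 0.16 for Plk4 and 0.11 for Ckap5, and no ERCC scaling 0.04 for Plk4. From GV to MII in WT, no ERCC scaling gave 0.76 for Cep192, 0.61 for Nedd1, 1.00 for Plk4, 0.84 for Ckap5 and 0.39 for Numa1, and median scaling 1.36 for Cep192, 0.13 for Cdk5rap2, 1.25 for Nedd1, 1.64 for Plk4, 1.48 for Ckap5 and 0.99 for Numa1. From GV to MII in the null, no ERCC scaling gave 0.62 for Cep192, 0.50 for Nedd1, 1.04 for Plk4, 0.74 for Ckap5 and 0.49 for Numa1, and median scaling 0.19 for Pcnt, 1.08 for Cep192, 0.99 for Nedd1, 1.53 for Plk4, 1.23 for Ckap5 and 0.94 for Numa1. With median scaling the maturation interaction was −0.11 for Plk4 and −0.04 for Numa1.

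Among genes averaging 5 FPKM or more, Cep192, Cdk5rap2 and Numa1 were not tested. There, 5 of the 5 members left fell in WT maturation and 3 in the null, and the growth interaction had 0 calls. Fitting only the groups compared left 2 lower in null GV oocytes, 3 falls of growth in the null and 0 growth interactions, from fewer libraries behind the spread. The pseudocount of 0.1 FPKM and no filter kept each count within 1.5 times. Fitting only the 4 growing libraries kept the count at 3 with Nedd1 in place of Cdk5rap2. Leaving out single libraries gave 1 to 4 members lower in growing and 2 to 6 in GV oocytes, 0 to 3 falls of growth in WT, 3 to 5 falls of maturation in the null, 0 to 1 growth interactions and 2 to 5 maturation interactions.

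The replicate numbers carried no stated pairing of animals or batches, but the ERCC factor ties each library to the WT growing library of its number. Across genes, the difference between a group's first and second libraries correlated between the groups compared at −0.117 to 0.163. With a replicate block, the counts were 3 lower in growing, 5 in GV and 0 in MII oocytes, 3 and 6 falls of growth, 8 and 5 falls of maturation, and 1 and 3 interactions, with no call changed. A crossed pairing of the GV libraries, chosen after seeing the data, also gave 5 lower. Depth is unknown for Ckap5, and 2 libraries a group limit every comparison.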
